A study of Mus musculus with 48 samples.

Results

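A list of 10 imprinted genes with roles in growth was followed, by mRNA level and by ribosome footprint level, in 6 mouse tissues at an adult and a fetal stage. The genes were Igf2, Dlk1, Igf2r, Grb10, Cdkn1c, Plagl1, Peg3, Mest, Peg10 and Ndn. The rule is this list of symbols and uses no measured value, but the list was chosen with earlier results of these data known. Counts of members set beside all genes are therefore descriptions. The genes were found through the GENCODE M21 annotation by Ensembl identifier with the version dropped. All 10 were present among the 22055 genes of the deposited tables. The samples were wild-type C57BL/6 mouse brain, retina, heart, kidney, liver and lung at postnatal day 42 (P42) and embryonic day 15.5 (E15.5), with no mutant and no treatment in either stage. Each tissue and stage was measured by ribosome profiling (Ribo-seq), which sequences the mRNA fragments that ribosomes cover, and by RNA-seq of poly(A)+ RNA, with 2 libraries in each of 24 groups. Nothing in the labels says that the 2 libraries of a group came from separate animals, so p-values measure only the spread between these libraries, which may be technical. The labels used here do not say whether tissue was pooled over animals.

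In an imprinted gene 1 parental copy is silent, typically through DNA methylation set in the germ line of a parent. Many such genes act on fetal growth. Genes expressed from the paternal copy in most fetal tissues, such as Igf2 and Peg3, mostly promote it. Those expressed from the maternal copy in most fetal tissues, such as Igf2r, Grb10 and Cdkn1c, mostly restrain it. In mice a set of them is known to be active together in fetal organs and to be turned down as growth slows after birth. The libraries do not separate the parental copies, so every level below is the sum of both.

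Sequences are shown for 3 members: promoter windows of Peg3 and Igf2 that hold a searched motif, and the frameshift site of Peg10. The promoter windows are RefSeq's on GRCm38.p6, 300 bases long around an annotated transcription start, and 8 of the 10 members matched, with 14 windows. Both strands of each window were searched for GGGGCCCC (a GC-rich palindrome of the kind that Plagl1 is known to bind), CCATNTT (the core of YY1 sites, which are known in the Peg3 domain) and TATAAA. The first was found in 1 of the 14 windows, at Peg3, where it is in capitals, against 1.08% of all promoter windows. CCATNTT was found in 2 of the 14 windows, at Igf2 and Grb10 and not at Peg3, which is near the 16.1% of all windows. TATAAA was found in 0, against 13.6%. The Igf2 window, of 1 of its 4 listed starts, has the CCATNTT match in capitals. A match describes the letters and is not a measured site. The third sequence is the frameshift site of Peg10, from the transcript Peg10-202, with the slippery heptamer GGGAAAC in capitals.
Peg3 promoter, chr7:6730370-6730669, minus strand: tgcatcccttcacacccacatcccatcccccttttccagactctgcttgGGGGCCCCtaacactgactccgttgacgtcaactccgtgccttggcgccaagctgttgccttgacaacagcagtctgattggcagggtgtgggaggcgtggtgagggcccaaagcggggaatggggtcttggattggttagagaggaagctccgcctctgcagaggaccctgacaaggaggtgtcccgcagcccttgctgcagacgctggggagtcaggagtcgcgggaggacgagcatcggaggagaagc
Igf2 promoter, chr7:142661222-142661521, minus strand: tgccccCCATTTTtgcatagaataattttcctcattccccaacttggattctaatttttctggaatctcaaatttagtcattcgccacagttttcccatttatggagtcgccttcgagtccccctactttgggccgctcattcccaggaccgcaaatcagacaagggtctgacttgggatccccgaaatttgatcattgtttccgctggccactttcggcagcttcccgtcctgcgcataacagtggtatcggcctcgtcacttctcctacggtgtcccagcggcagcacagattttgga
Peg10 frameshift site, chr6:4755303-4755362, plus strand: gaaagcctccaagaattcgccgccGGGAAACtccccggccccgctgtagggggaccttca

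Values are TPM (transcripts of a gene as a length-corrected share of the library) from the deposited tables, so the number of reads behind a value is unknown and no counting interval can be given. The listed genes accounted for 48.9% to 93.4% of all TPM in an RNA-seq library, the lowest being replicate 2 of E15.5 kidney, and for 23.1% to 61.1% in a Ribo-seq library. The 2 libraries of a group correlated across genes at r of 0.987 to 0.999 in RNA-seq and 0.976 to 0.999 in Ribo-seq. Markers of each of the 6 tissues were highest in their own tissue. The 4 deposited tables were split by assay and stage, so stage and table cannot be told apart. In whole tissue, fewer cells of a type and less RNA per cell cannot be told apart. Markers of other cell types moved with stage. A stromal list summed to 258 to 317 TPM in P42 heart RNA-seq libraries and 1428 to 1474 TPM in E15.5 ones, and a dividing-cell list to 7.16 to 35.0 TPM over all P42 and 263 to 1817 TPM over all E15.5 RNA-seq libraries. Ccna2 made up most of the dividing-cell sum in P42 retina and brain. Its means were 32.2 TPM in retina, with Birc5 next at 0.516 TPM, and 9.38 TPM in brain, with Mki67 next at 1.03 TPM. In kidney RNA-seq libraries the adrenal cortex list summed to 1.63 and 2.00 TPM at P42 and 957 and 558 TPM at E15.5, and the hepatoblast list to 14.1 and 12.7 TPM at P42 and 3444 and 2027 TPM at E15.5, with Alb at means of 7.52 TPM at P42 and 1519.8 TPM at E15.5 and Afp at 0.990 TPM at P42 and 775 TPM at E15.5. Their part in the kidney values below was not tested. The part these cells play in the stage differences was not tested.

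Nearly every member was lower at P42 in nearly every tissue. By mRNA, 10 of 10 members fell in each of brain, heart, kidney, liver and lung, and 5 of the 9 tested fell in retina, which is 55 of 59 gene and tissue pairs; 0 rose. A call needed a limma adjusted p below 0.05 over all genes and a log2 difference of at least 1. Among all genes tested, the share called lower was 47.0% in liver, 43.9% in kidney, 53.5% in lung, 74.6% in heart, 36.0% in brain and 24.7% in retina, and the share called higher was 13.4% in liver, 13.1% in kidney, 10.1% in lung, 2.73% in heart, 11.7% in brain and 18.6% in retina. The members' median log2 difference (P42 minus E15.5) was -5.17 in heart, -5.12 in kidney, -4.99 in liver, -4.37 in lung, -2.94 in brain and -2.31 in retina. The median over all genes was -1.61, -0.81, -0.89, -1.11, -0.60 and -0.23 in the same order of tissues. TPM values thus fell in general at P42, but TPM is a share of the library. Mitochondrial genes took 54.2% and 55.5% of TPM in P42 heart RNA-seq libraries and 14.5% and 14.98% in E15.5 ones. In lung, Scgb1a1 mRNA had means of 279601 TPM at P42 and 2.61 TPM at E15.5. With mitochondrial genes left out, the medians over all genes were -0.88, -1.03, -1.07, -1.14, -0.44 and -0.10. The part of these shares in the members' order of tissues was not tested.

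The general fall depends on the scaling. With median-of-ratios scaling, which centres the genes between libraries, all genes had medians of 0.05 to 0.11, and the share called lower was 24.1% in liver, 20.6% in kidney, 15.6% in lung, 13.6% in heart, 15.3% in brain and 17.3% in retina, with 29.9% in liver, 25.7% in kidney, 24.7% in lung, 20.8% in heart, 22.9% in brain and 21.9% in retina called higher. Of the 55 member pairs, 51 stayed called lower under every scaling tried. The exceptions were Peg3, Igf2r and Ndn in brain and Igf2r in kidney, whose median-of-ratios log2 differences were -0.62, -0.998, -0.62 and -0.81.

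Footprints gave nearly the same picture. Members fell in 54 of 59 pairs, 8 of 10 in brain, 6 of 9 in retina and 10 of 10 in each of heart, kidney, liver and lung, and 0 rose. The share of all genes with footprints called lower was 44.0% in liver, 40.2% in kidney, 22.8% in lung, 50.6% in heart, 17.7% in brain and 16.2% in retina, and higher 10.2% in liver, 12.2% in kidney, 18.6% in lung, 10.2% in heart, 20.2% in brain and 21.3% in retina; with median-of-ratios scaling it was 18.0% in liver, 16.4% in kidney, 14.5% in lung, 10.2% in heart, 14.4% in brain and 16.2% in retina lower and 25.2% in liver, 24.3% in kidney, 23.3% in lung, 22.2% in heart, 22.2% in brain and 21.5% in retina higher. Under every scaling 52 pairs stayed lower, the exceptions being Peg10 in heart and Igf2r in kidney, at -0.50 and -0.47 with median-of-ratios scaling. The median over members was -5.02 in heart, -4.96 in liver, -4.68 in kidney, -4.09 in lung, -2.20 in brain and -1.22 in retina.

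**Figure D1:**
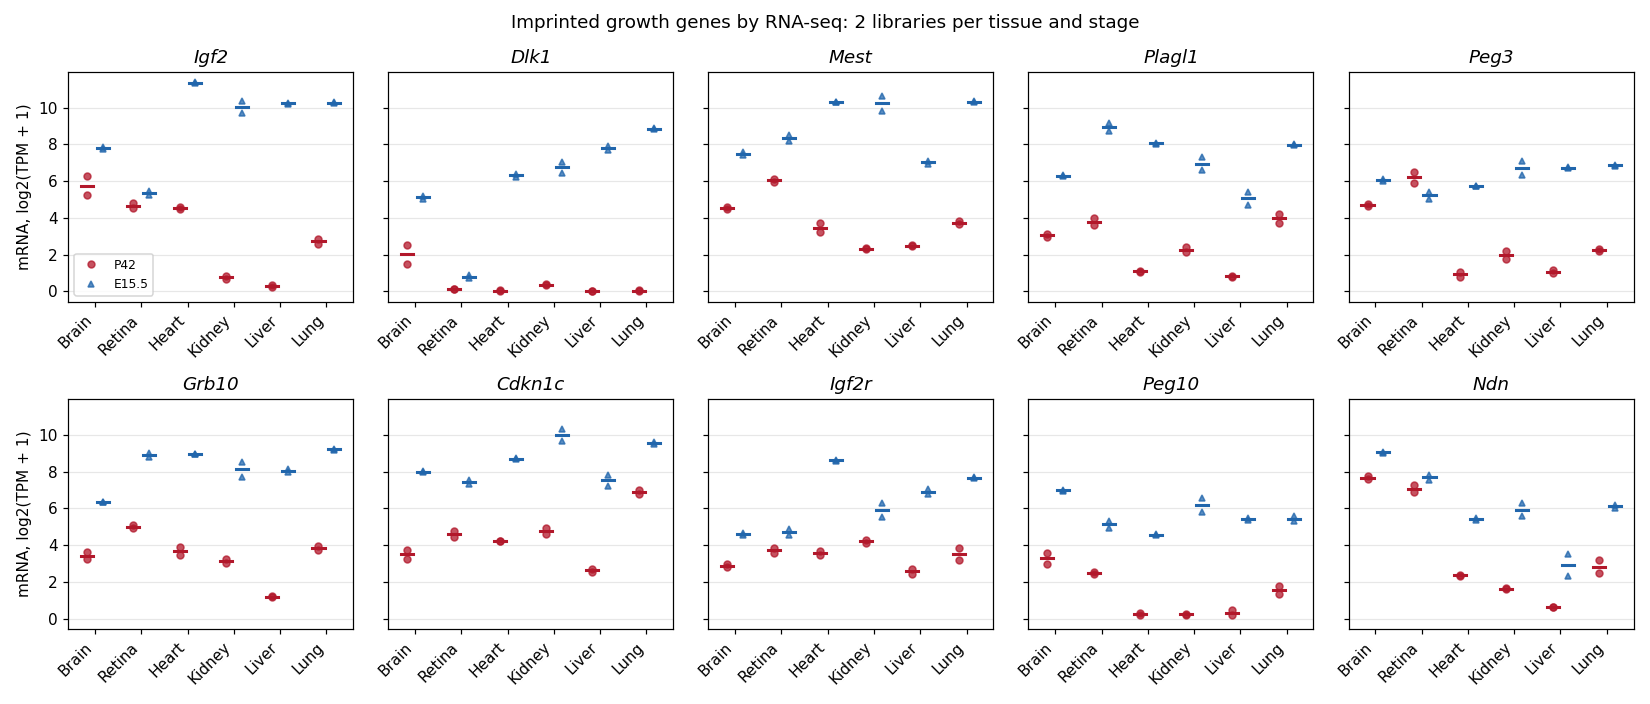
RNA-seq TPM (log axis) of each member in the 6 tissues, 1 panel per gene; red circles are the 2 P42 libraries, blue triangles the 2 E15.5 libraries, and bars the means on the log2 scale. P42 points lie below E15.5 points in every panel and tissue except Peg3 in retina, where the P42 libraries, at 90.6 and 58.1 TPM, lie above.

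**Figure D2:**
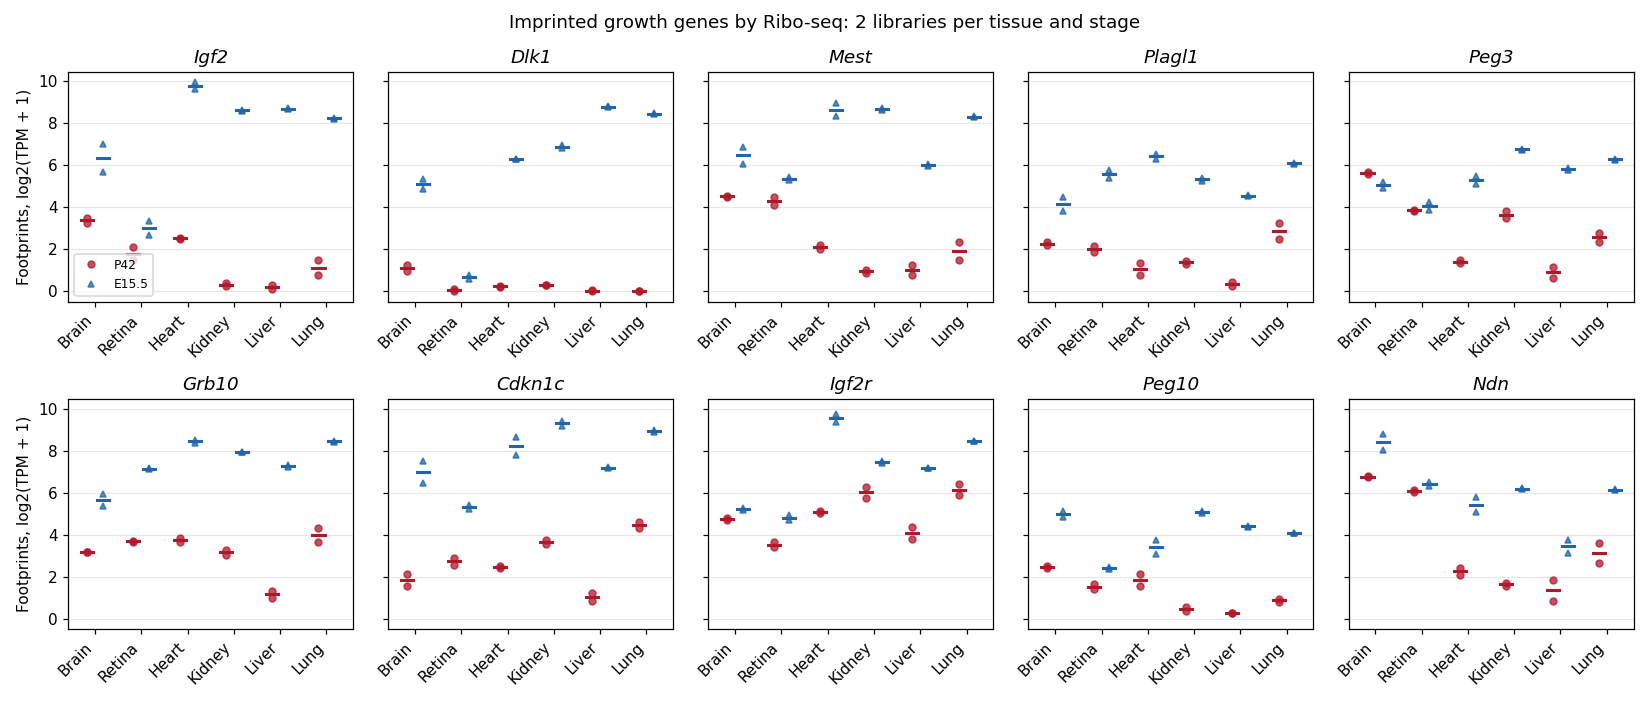
Ribo-seq TPM (log axis) of the same genes in the same layout, with red circles for P42 and blue triangles for E15.5 libraries and bars for the means on the log2 scale. Peg3 is the exception again, with P42 brain above E15.5 brain and overlapping points in retina.

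How far a gene was shut off was read as its P42 mean as a percentage of its E15.5 mean. By RNA-seq, 35 of the 60 gene and tissue pairs were below 5%, 13 had a P42 mean below 1 TPM, and the median pair kept 3.48%. Among all genes with at least 5 TPM at E15.5, the share below 5% ran from 2.13% in brain to 8.55% in liver. With median-of-ratios scaling 18 of the 60 pairs were below 5%, and the share of all genes ran from 0.961% in brain to 5.54% in liver. By footprint 31 pairs were below 5%, 13 were below 1 TPM, and the median pair kept 4.38%, while the share of all genes below 5% ran from 1.84% in lung to 8.78% in liver. For neither assay was the share of all genes with a P42 mean below 1 TPM computed. The median gene among all kept 58.6% in brain, 74.2% in retina, 49.7% in kidney, 44.7% in liver, 38.9% in lung and 25.3% in heart by RNA-seq. By footprint the median gene kept 82.4% in brain, 80.8% in retina, 69.7% in lung, 47.8% in kidney, 40.7% in liver and 35.3% in heart. Brain or retina kept the highest percentage for 9 of 10 members by RNA-seq, with lung highest for Cdkn1c, and for 10 of 10 by footprint. The median gene also kept most in these 2 tissues in both assays. The share of all genes with brain or retina highest was not computed. The members' summed RNA-seq level was 84.8 and 74.4 TPM in P42 heart, against 5714 and 5557 TPM in E15.5 heart. In liver the sum was 18.9 and 19.2 TPM in P42 liver, against 2233 and 2392 TPM in E15.5 liver. Brain kept more of it, with 392 and 311 TPM in P42 brain, against 1614 and 1576 TPM in E15.5 brain. The replicates of the stages overlapped for 1 of the 60 pairs by footprint, Peg3 in retina, and for 0 by RNA-seq. How often they overlapped among all genes was not computed, so this count does not set the members apart.

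**Figure D3:**
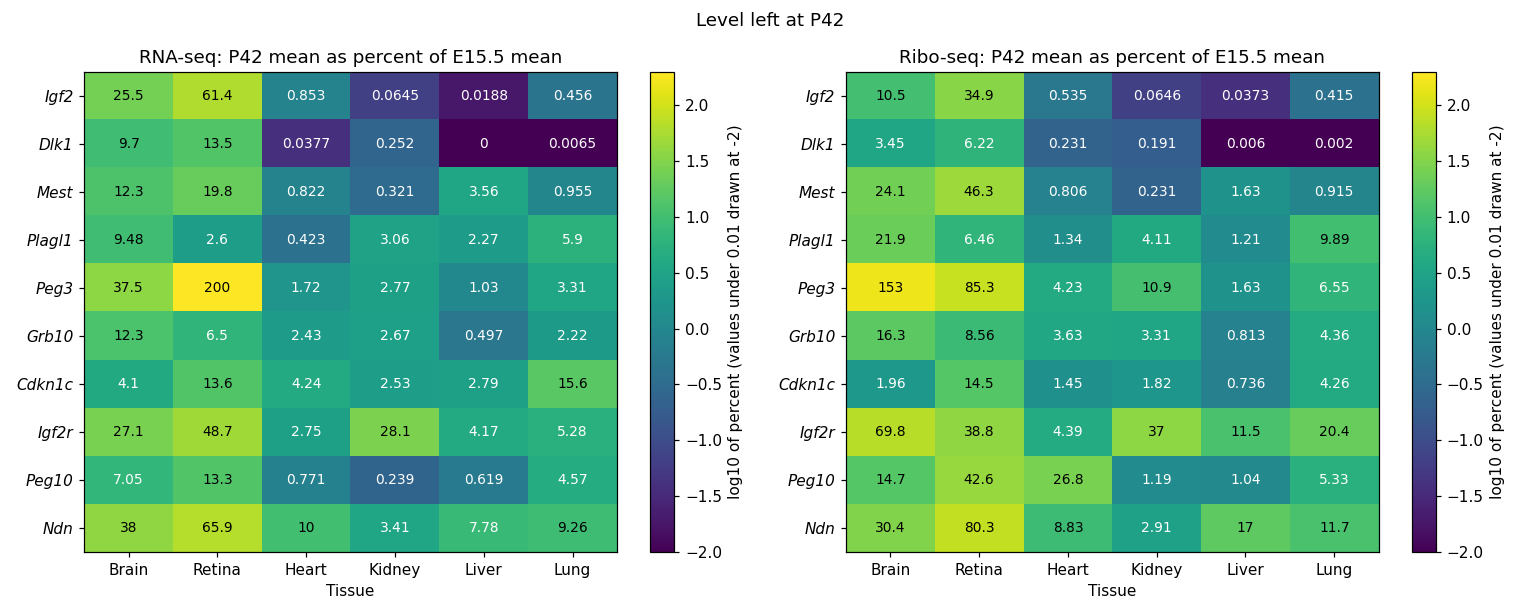
P42 mean level as a percentage of the E15.5 mean for each member (rows) and tissue (columns), from RNA-seq and Ribo-seq, with colour on a log10 scale. The retina and brain columns hold the highest values, up to 199.9% for retina Peg3 mRNA. The lowest mRNA values are Dlk1 in liver, listed at 0 at P42, Dlk1 in lung at 0.0065% and Igf2 in liver at 0.0188%.

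Whether a member's loss differed between tissues was tested with an F test over the 5 tissue contrasts of the stage difference. All 10 members passed in mRNA, where 98.3% of all genes did, and all 10 passed in footprints, where 93.0% did, so a pass is close to the background. The adjusted p-values are given with the results set aside for a closer look.

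Igf2 encodes the fetal insulin-like growth factor and had the largest log2 loss of the list in liver and kidney by mRNA. Its gene lies on chromosome 7 (chr7:142650766-142666816, minus strand, GRCm38). Its mRNA measured 0.190 and 0.264 TPM in P42 liver, against 1173 and 1236 TPM in E15.5 liver. In heart, the tissue with the highest fetal level, it measured 23.0 and 21.5 TPM in P42 heart, against 2664 and 2555 TPM in E15.5 heart. The P42 libraries were below the E15.5 ones in every tissue, and P42 liver kept 0.0188% and P42 kidney 0.0645%. The log2 difference was -9.94 ± 0.24 (SE; limma adjusted p = 5.37e-20) in liver, -6.81 ± 0.24 (SE; limma adjusted p = 6.76e-16) in heart, -9.27 in kidney and -7.55 in lung, all 4 lower. In kidney its mRNA measured 0.589 and 0.792 TPM in P42 kidney, against 1314 and 828 TPM in E15.5 kidney, with the adrenal and hepatoblast markers of E15.5 kidney beside it, and in lung 6.33 and 4.98 TPM in P42 lung, against 1279.8 and 1198 TPM in E15.5 lung. Footprints in liver measured 0.0876 and 0.223 TPM in P42 liver, against 413 and 419.9 TPM in E15.5 liver, a log2 difference of -8.50 ± 0.34 (SE; limma adjusted p = 1.77e-13).

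In the neural tissues Igf2 kept more. In brain it measured 75.5 and 37.6 TPM in P42 brain, against 231 and 213 TPM in E15.5 brain, a difference of -2.04 ± 0.24 (SE; limma adjusted p = 1.13e-07), and P42 brain ranked first among the P42 tissues. In retina it measured 27.0 and 22.2 TPM in P42 retina, against 37.2 and 42.9 TPM in E15.5 retina, and its difference of -0.68 ± 0.24 (SE; limma adjusted p = 0.0147) did not reach the size needed for a call. Igf2 is known to be made in the choroid plexus and meninges of the adult brain. The choroid plexus marker list summed to 4129 TPM in replicate 1 and 146 TPM in replicate 2 of P42 brain RNA-seq, most of it from the transthyretin gene Ttr at 4079 and 141 TPM, and the meninges list to 34.1 and 20.3 TPM. Igf2 was higher in the same replicate 1. Without replicate 1 the Igf2 difference was -2.53, and without replicate 2 it was -1.54, both still called lower. The part of these cells in the Igf2 level was not tested.

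Of the exonic bases of Igf2, 62.8% also belong to Gm49394, an overlapping gene on the same strand that is listed separately. Gm49394 measured 0.229 and 0.318 TPM in P42 liver, against 1388 and 1458 TPM in E15.5 liver. How reads on the shared bases were assigned is not given in the sources used here, so the level of Igf2 itself is uncertain by the part that counting could have moved between both genes, and both fell.

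Dlk1 encodes a membrane-bound and shed EGF-repeat protein, a non-canonical Notch ligand known for holding back adipocyte differentiation (chr12:109452823-109463336, plus strand). Its P42 mRNA mean was under 1 TPM in every tissue but brain. The mRNA measured 0 and 0 TPM in P42 liver, against 204 and 238 TPM in E15.5 liver, and it is listed at 0 in both P42 liver libraries, so no fold is given. In lung, where it was highest at E15.5, it measured 0.00980 and 0.0504 TPM in P42 lung, against 473 and 453 TPM in E15.5 lung. The log2 difference was -8.81 ± 0.24 (SE; limma adjusted p = 2.64e-18) in lung, -6.40 in kidney and -6.28 in heart, and Dlk1 was not tested in retina because its mean there was under 1 TPM at both stages. Footprints in lung measured 0.0143 and 0 TPM in P42 lung, against 343 and 363 TPM in E15.5 lung.

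In brain Dlk1 mRNA measured 4.83 and 1.78 TPM in P42 brain, against 35.9 and 32.2 TPM in E15.5 brain, a difference of -3.12 ± 0.24 (SE; limma adjusted p = 1.18e-10). Without replicate 1 of P42 brain it was -3.66 and without replicate 2 it was -2.59. In E15.5 kidney, Dlk1 measured 131 and 87.0 TPM. Dlk1 is known to be expressed in the adrenal gland and in fetal liver, whose markers were both high in E15.5 kidney, as given above, and E15.5 liver itself had 204 and 238 TPM of Dlk1. Their part in the kidney level was not tested.

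Igf2r encodes the mannose-6-phosphate receptor, which carries Igf2 to the lysosome for breakdown (chr17:12682406-12769664, minus strand). Its mRNA fell in brain, heart, kidney, liver and lung. It measured 11.7 and 9.99 TPM in P42 heart, against 400.2 and 389 TPM in E15.5 heart, a difference of -5.06 ± 0.22 (SE; limma adjusted p = 2.31e-14). In kidney it measured 16.6 and 18.4 TPM in P42 kidney, against 78.3 and 45.9 TPM in E15.5 kidney, a difference of -1.72 ± 0.22 (SE; limma adjusted p = 3.17e-07). In retina it measured 13.3 and 11.1 TPM in P42 retina, against 22.2 and 27.9 TPM in E15.5 retina, and the difference of -0.98 ± 0.22 (SE; limma adjusted p = 0.0005) was just under the size limit and passed it when replicate 1 of either stage was left out (-1.14 without the E15.5 library, -1.10 without the P42 library). The heart kept 2.75% and the retina 48.7% of the fetal level. In brain, footprints measured 26.3 and 24.6 TPM in P42 brain, against 37.6 and 35.4 TPM in E15.5 brain, and their difference of -0.50 ± 0.23 (SE; limma adjusted p = 0.0646) was not called although the mRNA difference of -1.74 ± 0.22 (SE; limma adjusted p = 3.88e-07) was. The P42 mRNA levels lay close together, between 4.99 and 17.5 TPM over the 6 tissues, and 3 of their 15 tissue contrasts were called, against 11 of 15 at E15.5, where the means ran between 23.7 and 395 TPM.

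Grb10 encodes an adaptor protein that binds the insulin and insulin-like growth factor receptors and restrains their signal (chr11:11930508-12038683, minus strand). It fell in all 6 tissues in both assays. Its mRNA measured 14.2 and 12.1 TPM in P42 lung, against 597 and 589 TPM in E15.5 lung. In liver it measured 1.22 and 1.39 TPM in P42 liver, against 277 and 248 TPM in E15.5 liver. In both tissues every P42 library was far below every E15.5 library. Liver kept 0.497% and brain, where it kept most, 12.3%. The log2 differences were -6.84 ± 0.22 (SE; limma adjusted p = 7.25e-18) in liver, -5.40 ± 0.22 (SE; limma adjusted p = 2.07e-15) in lung and -2.92 ± 0.22 (SE; limma adjusted p = 6.38e-11) in brain. Retina, one of its high fetal tissues, measured 33.0 and 29.1 TPM in P42 retina, against 439 and 516 TPM in E15.5 retina, a difference of -3.90, and heart measured 14.1 and 10.1 TPM in P42 heart, against 503 and 496 TPM in E15.5 heart, a difference of -5.27. Retina was the highest P42 tissue, above lung by 1.18 ± 0.22 (SE; limma adjusted p = 2.65e-05), while the steps from lung to heart, heart to brain and brain to kidney were not called. Heart footprints measured 13.6 and 11.7 TPM in P42 heart, against 362 and 333 TPM in E15.5 heart, a difference of -4.68 ± 0.22 (SE; limma adjusted p = 1.22e-11).

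Cdkn1c encodes p57, an inhibitor of cyclin-dependent kinases that lets cells leave the cell cycle (chr7:143458339-143461050, minus strand). It fell in all 6 tissues in both assays, and it kept most mRNA in lung. Lung mRNA measured 109 and 127 TPM in P42 lung, against 779.8 and 739 TPM in E15.5 lung, or 15.6% of the fetal mean, a difference of -2.68 ± 0.23 (SE; limma adjusted p = 4.51e-10). Kidney, highest at E15.5, measured 29.9 and 23.4 TPM in P42 kidney, against 1302 and 810.4 TPM in E15.5 kidney, a difference of -5.22 ± 0.23 (SE; limma adjusted p = 5.29e-15). The adrenal and hepatoblast markers given above were also high in E15.5 kidney and low in P42 kidney, and their part in this difference and in the kidney's lead was not tested. Lung footprints measured 23.3 and 18.9 TPM in P42 lung, against 476 and 513 TPM in E15.5 lung, a larger loss than by mRNA, at -4.50 ± 0.31 (SE; limma adjusted p = 7.84e-10). P42 lung mRNA was higher than in P42 kidney, the next tissue, by 2.11 ± 0.23 (SE; limma adjusted p = 2.3e-08). In brain the loss was the largest of the 10 members: mRNA measured 12.3 and 8.53 TPM in P42 brain, against 259 and 248 TPM in E15.5 brain, a difference of -4.50 ± 0.23 (SE; limma adjusted p = 1.03e-13). Brain footprints measured 1.95 and 3.37 TPM in P42 brain, against 184 and 88.3 TPM in E15.5 brain. An antisense transcript, Gm44732, covers 30.7% of the exonic bases of Cdkn1c, and whether reads were counted by strand is not given in the sources used here, so reads of both cannot be told apart.

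Plagl1 encodes Zac1, a zinc-finger transcription factor known to bind regulatory regions of other imprinted genes (chr10:13060504-13131694, plus strand). It fell in all 6 tissues in both assays. In retina, where it was highest at E15.5, it measured 14.7 and 11.4 TPM in P42 retina, against 422 and 581 TPM in E15.5 retina, a difference of -5.16 ± 0.24 (SE; limma adjusted p = 1.54e-14). In heart it measured 1.11 and 1.16 TPM in P42 heart, against 264 and 272 TPM in E15.5 heart, a difference of -6.98 ± 0.24 (SE; limma adjusted p = 5.8e-16). In brain it measured 7.81 and 6.80 TPM in P42 brain, against 75.5 and 78.6 TPM in E15.5 brain, which left 9.48%, the most of any tissue. P42 heart kept 0.423% and P42 liver 2.27%. Lung held the highest P42 mean, with 12.1 and 17.8 TPM in P42 lung, against 247 and 260.1 TPM in E15.5 lung. Heart footprints measured 1.56 and 0.743 TPM in P42 heart, against 93.2 and 79.1 TPM in E15.5 heart, a difference of -5.36 ± 0.26 (SE; limma adjusted p = 1.88e-11), and retina footprints 2.72 and 3.48 TPM in P42 retina, against 54.7 and 41.3 TPM in E15.5 retina, a difference of -3.57.

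Peg3 encodes a large zinc-finger protein known from mouse knockouts for fetal growth and maternal behaviour (chr7:6703892-6730431, minus strand; its promoter, with the GGGGCCCC palindrome, is among the sequences above). It was the one member with a higher mean at P42 in any tissue. Retina mRNA measured 90.6 and 58.1 TPM in P42 retina, against 32.1 and 42.2 TPM in E15.5 retina. Both P42 libraries were above both E15.5 libraries, and the P42 mean was 199.9% of the fetal mean. The difference of 0.96 ± 0.23 (SE; limma adjusted p = 0.00075) fell just short of the size needed for a call. It was called higher with median-of-ratios scaling (1.25), with mitochondrial genes left out (1.10), without replicate 2 of E15.5 retina (1.15) and without replicate 2 of P42 retina (1.27). Footprints there measured 13.6 and 13.4 TPM in P42 retina, against 18.1 and 13.6 TPM in E15.5 retina, which overlapped, with a difference of -0.20 ± 0.22 (SE; limma adjusted p = 0.435).

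Brain gave the opposite arrangement. Peg3 mRNA fell, at 26.0 and 23.9 TPM in P42 brain, against 68.4 and 64.5 TPM in E15.5 brain, a difference of -1.38 ± 0.23 (SE; limma adjusted p = 1.18e-05). Peg3 footprints in brain measured 50.8 and 47.6 TPM in P42 brain, against 28.9 and 35.4 TPM in E15.5 brain, the P42 libraries above the E15.5 ones, with a difference of 0.60 ± 0.22 (SE; limma adjusted p = 0.0222) that was not large enough for a call. In the other 4 tissues both measures fell: liver mRNA measured 1.21 and 0.972 TPM in P42 liver, against 108 and 103 TPM in E15.5 liver, a difference of -5.68 ± 0.23 (SE; limma adjusted p = 6.09e-16), and heart mRNA 0.748 and 1.06 TPM in P42 heart, against 52.6 and 52.6 TPM in E15.5 heart, a difference of -4.82. Lens markers summed to 103 and 304 TPM and pigment epithelium markers to 381 and 493 TPM in P42 retina RNA-seq, against 19.8 and 40.6 TPM and 13.5 and 9.22 TPM in E15.5 retina. Most of the pigment epithelium sum was Rlbp1, which Mueller glia of the retina also express, with means of 373 TPM in P42 and 8.22 TPM in E15.5 retina. Rpe65 had 22.1 and 0.019 TPM and Best1 0.822 and 1.91 TPM at P42 and at E15.5. Retina Peg3 mRNA was higher in replicate 1 of P42, which had the lower sum of both lists. Their part in the Peg3 level was not tested.

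Mest encodes a protein of the alpha/beta-hydrolase fold in the endoplasmic reticulum, known for adipocyte size and fetal growth in mice (chr6:30723547-30748465, plus strand). It fell in all 6 tissues in both assays. Kidney mRNA measured 4.06 and 3.97 TPM in P42 kidney, against 1595 and 910.1 TPM in E15.5 kidney, the deepest mRNA loss of Mest, at 0.321% of the fetal mean and -7.91 ± 0.21 (SE; limma adjusted p = 1.01e-18). Heart measured 12.3 and 8.24 TPM in P42 heart, against 1257 and 1244 TPM in E15.5 heart, a difference of -6.82, and lung 13.1 and 11.5 TPM in P42 lung, against 1309 and 1272 TPM in E15.5 lung, a difference of -6.60. These 3 organs kept under 1% of the E15.5 mean, while retina measured 68.3 and 61.7 TPM in P42 retina, against 288 and 370.3 TPM in E15.5 retina, which left 19.8%, with a difference of -2.31 ± 0.21 (SE; limma adjusted p = 2.24e-09). Retina footprints measured 16.2 and 21.3 TPM in P42 retina, against 37.9 and 43.2 TPM in E15.5 retina. The footprint difference of -1.08 ± 0.28 (SE; limma adjusted p = 0.00321) lost its call without replicate 2 of E15.5 retina (-0.99) and without replicate 1 of P42 retina (-0.89). Retina Igf2 footprints, at -1.22 ± 0.34 (SE; limma adjusted p = 0.0045), lost their call without the same libraries (-0.88 and -0.92). Of the exonic bases of Mest, 23.1% overlap Copg2 on the opposite strand, which is listed separately and also fell in 6 of 6 tissues, and reads of both may be mixed.

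Peg10 is a retrotransposon-derived gene known to be required for the placenta, whose second reading frame is reached by a programmed shift of the ribosome by 1 base (chr6:4747306-4760517, plus strand). In the transcript Peg10-202 the heptamer shown above follows 368 codons, and the first frame ends after 376 codons, 22 bases past the start of the heptamer. The tables give 1 value per gene, so footprints before and after that site cannot be told apart. Peg10 mRNA measured 11.1 and 6.83 TPM in P42 brain, against 129 and 125 TPM in E15.5 brain, a difference of -3.72 ± 0.23 (SE; limma adjusted p = 3.09e-12). Kidney mRNA measured 0.164 and 0.192 TPM in P42 kidney, against 93.5 and 55.7 TPM in E15.5 kidney, a difference of -5.96 ± 0.23 (SE; limma adjusted p = 5.83e-16), and kidney kept 0.239%. Lung mRNA measured 1.53 and 2.36 TPM in P42 lung, against 46.2 and 39.0 TPM in E15.5 lung, a difference of -3.90. Peg10 was below 1 TPM of mRNA in P42 heart, kidney and liver. Retina footprints measured 1.63 and 2.11 TPM in P42 retina, against 4.20 and 4.58 TPM in E15.5 retina, a difference of -0.91 ± 0.21 (SE; limma adjusted p = 0.00125), too small for a call. It was called lower with mitochondrial genes left out (-1.004), at an equal sum of listed genes (-1.08), with a pseudocount of 0.25 (-1.14) and without replicate 2 of P42 Ribo-seq (-1.03). The mRNA difference of -2.65 ± 0.23 (SE; limma adjusted p = 7.08e-10) was called.

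Ndn encodes necdin, a MAGE-family protein of postmitotic neurons and a gene of the imprinted Prader-Willi region (chr7:62346569-62350262, plus strand). Its level was highest in brain and next in retina at both stages in both assays. Brain mRNA measured 213 and 190.3 TPM in P42 brain, against 537 and 522 TPM in E15.5 brain, a difference of -1.39 ± 0.28 (SE; limma adjusted p = 0.000147). Retina mRNA measured 116 and 155 TPM in P42 retina, against 224 and 188 TPM in E15.5 retina, and its difference of -0.61 ± 0.28 (SE; limma adjusted p = 0.0616) was not called. Retina footprints measured 70.0 and 65.2 TPM in P42 retina, against 90.2 and 78.2 TPM in E15.5 retina, with a difference of -0.31 ± 0.35 (SE; limma adjusted p = 0.46), also not called. Outside the neural tissues its loss was larger: kidney mRNA measured 2.08 and 2.13 TPM in P42 kidney, against 77.5 and 46.4 TPM in E15.5 kidney, and P42 kidney kept 3.41%, against 65.9% kept in P42 retina. Lung mRNA measured 7.99 and 4.65 TPM in P42 lung, against 71.8 and 64.7 TPM in E15.5 lung, a difference of -3.28, and heart mRNA 4.07 and 4.20 TPM in P42 heart, against 42.8 and 39.6 TPM in E15.5 heart, a difference of -3.04. The step between P42 brain and P42 retina mRNA was not called (0.58 ± 0.28, SE; limma adjusted p = 0.0748), and P42 retina was above P42 lung by 4.25 ± 0.28 (SE; adjusted p = 3.59e-12).

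Changes in mRNA and footprints went together over the 59 pairs tested in both, with r = 0.917 as a description, since the pairs share genes and libraries. In 40 pairs both differences lay within 1 log2 unit of each other. The footprint loss was the smaller one in 42 pairs, and the median of footprint minus mRNA difference was 0.44. Over all gene and tissue pairs that median was 0.41, with 70.3% of pairs above 0, and by tissue it ran from -0.017 in liver to 0.88 in lung. With median-of-ratios scaling the median was 0.035 for members, with 31 of 59 pairs above 0, and 0.00059 for all genes. In 52 pairs both measures were called lower. The 3 pairs lower in mRNA only were Peg3 and Igf2r in brain and Peg10 in retina, the last of which was called in footprints too under the 4 settings given above, and the 2 lower in footprints only were Igf2 and Igf2r in retina.

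**Figure D4:**
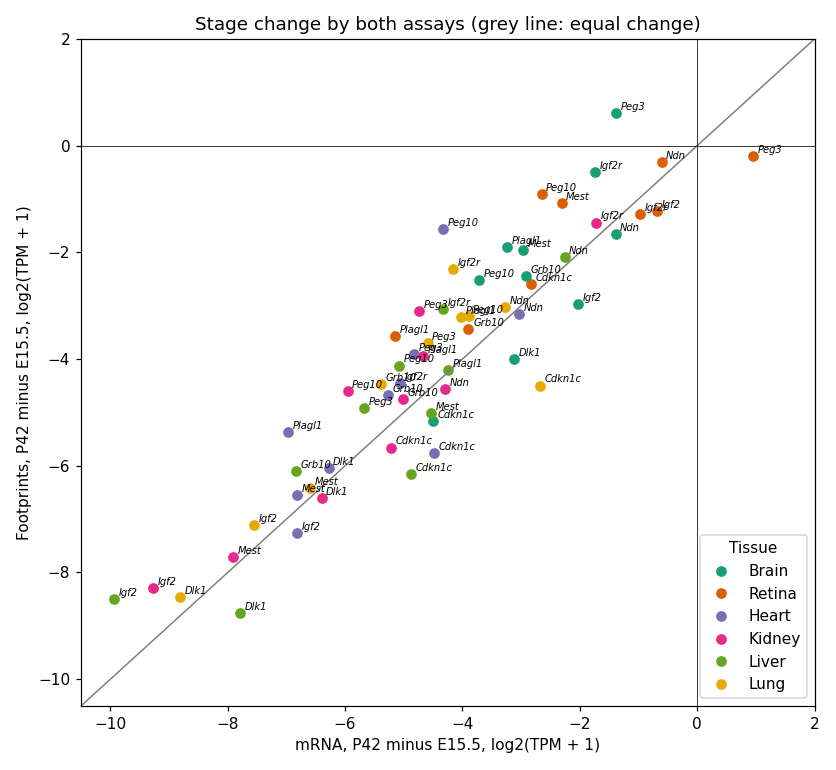
Log2 difference P42 minus E15.5 by footprint (vertical axis) against that by mRNA (horizontal axis) for the 59 member and tissue pairs tested in both, with the line of equality. 40 of 59 points lie within 1 log2 unit of the line and 42 of 59 lie above it, and retina Peg3 is the point farthest to the right.

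The ratio of footprint to mRNA TPM was compared between stages as translational efficiency, where a gene had at least 5 TPM of mRNA at both stages, which 33 pairs did. It rose in 8 pairs and fell in 4; with median-of-ratios scaling it rose in 2 and fell in 8. Among all genes tested, 3.89% in liver, 2.11% in kidney, 39.4% in lung, 10.7% in heart, 27.7% in brain and 11.8% in retina rose and 19.6% in liver, 4.37% in kidney, 1.28% in lung, 4.94% in heart, 2.28% in brain and 1.87% in retina fell, so in brain and lung a rise was common. With median-of-ratios scaling 5.68% in liver, 2.50% in kidney, 5.63% in lung, 2.75% in heart, 6.67% in brain and 3.10% in retina rose and 18.3% in liver, 6.03% in kidney, 11.4% in lung, 18.6% in heart, 11.2% in brain and 4.72% in retina fell. Under every scaling 3 of the 12 calls held: the rise of Peg3 in brain, the fall of Peg3 in retina and the fall of Cdkn1c in lung. The ratio compares libraries made by different protocols, so its absolute size is not a rate. The deposited values are exon-level, and whether footprints were divided by the length of the coding part alone is not given. Ranks of the ratio between genes, such as that of Igf2r below, could depend on this, which was not tested.

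Peg3 moved in opposite directions in the 2 neural tissues. Its ratio was 1.97 in P42 brain and 0.484 in E15.5 brain, where the median gene had 0.477 and 0.331, a log2 difference of 1.98 ± 0.32 (SE; limma adjusted p = 1.34e-05). In retina the ratio was 0.182 in P42 retina and 0.426 in E15.5 retina, a difference of -1.16 ± 0.32 (SE; limma adjusted p = 0.0102). The retina call was lost without replicate 1 of E15.5 Ribo-seq (-0.96), of E15.5 RNA-seq (-0.97) or of P42 RNA-seq (-0.84). The difference between both tissues was not tested.

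Cdkn1c fell in lung, where its ratio was 0.178 in P42 lung and 0.651 in E15.5 lung, a difference of -1.82 ± 0.39 (SE; limma adjusted p = 0.000336). It also fell in heart and liver, both at -1.27 with an SE of 0.39. The heart call was lost without any of 6 libraries (-0.83 to -1.31) and the liver call without either of 2 (-0.96 and -1.07). Igf2r had a high ratio in every group at the 5 TPM floor, above 87.0% of genes in E15.5 liver and above 97.0% to 99.7% in the other 10 groups. It was 6.60 in P42 lung and 1.71 in E15.5 lung, and rose in lung by 1.85 ± 0.32 (SE; limma adjusted p = 3.05e-05) and in brain by 1.23 ± 0.32 (SE; limma adjusted p = 0.00244). The Igf2 ratio was 0.214 in P42 heart and 0.341 in E15.5 heart, where the median gene had 0.554 and 0.509, and no change of it was called at this scaling; with median-of-ratios scaling it fell in brain, heart and retina (-1.63, -1.27 and -1.10). The brain fall was also called with mitochondrial genes left out (-1.24) and at an equal sum (-1.12). It was called too without replicate 2 of E15.5 brain Ribo-seq (-1.60) or of P42 brain RNA-seq (-1.44). In P42 brain Ttr, from the choroid plexus list, measured 4079 and 141 TPM by RNA-seq and 412 and 631 TPM by Ribo-seq. Igf2 there measured 75.5 and 37.6 TPM by RNA-seq and 8.53 and 10.3 TPM by Ribo-seq. The part of choroid plexus content in the brain fall was not tested. In lung the Igf2 ratio was called higher with a pseudocount of 4 (1.14). Cdkn1c in brain, not called here, was called lower with median-of-ratios scaling (-1.45), with mitochondrial genes left out (-1.09) and without replicate 2 of E15.5 brain Ribo-seq (-1.19).

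The other rises were Mest, Plagl1 and Peg10 in brain and Mest and Plagl1 in retina. Plagl1 had a ratio of 0.518 in P42 brain and 0.225 in E15.5 brain, a rise of 1.33 ± 0.37 (SE; limma adjusted p = 0.00377), and 0.238 in P42 retina and 0.0957 in E15.5 retina, a rise of 1.58 ± 0.37 (SE; limma adjusted p = 0.00281). Mest rose by 1.01 ± 0.36 (SE; limma adjusted p = 0.0239) in brain, a call lost without any of 5 libraries (0.62 to 1.02), and by 1.23 ± 0.36 (SE; limma adjusted p = 0.0159) in retina, lost without any of 3 (1.04 to 1.16). Peg10 in brain rose by 1.21 ± 0.32 (SE; limma adjusted p = 0.0027), and without replicate 2 of P42 brain RNA-seq the difference was 0.89, under the size limit.

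**Figure D5:**
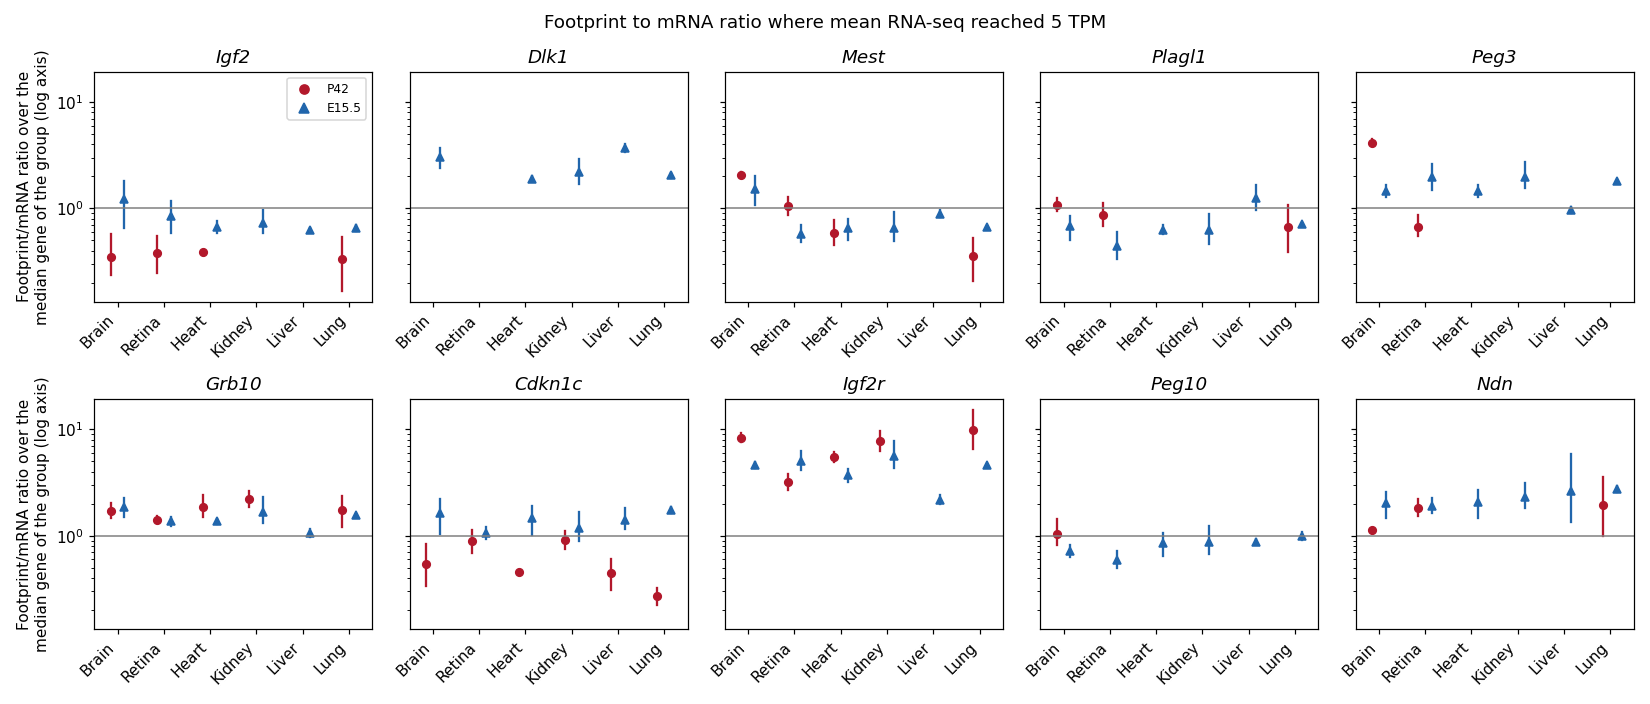
Ratio of footprint to mRNA TPM divided by the ratio of the median gene of the same group (log axis), by member and tissue where mRNA reached 5 TPM, with P42 in red left of E15.5 in blue and lines from the lowest to the highest ratio of the replicates. Igf2r lies between 2.18 and 9.94 times the median gene, the low end being E15.5 liver, where Dlk1 (3.68 times) and Ndn (2.61 times) lie above it, and P42 brain Peg3 stands at 4.14 times against 1.46 times at E15.5.

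Within a stage the members differed in which tissue led. At P42 by mRNA, brain was highest for Igf2, Dlk1, Peg10 and Ndn, retina for Mest, Peg3 and Grb10, lung for Plagl1 and Cdkn1c and kidney for Igf2r. At E15.5 lung led for Dlk1, Mest, Peg3 and Grb10, heart for Igf2 and Igf2r, brain for Peg10 and Ndn, kidney for Cdkn1c and retina for Plagl1. Liver was lowest at P42 for 7 of 10 members by mRNA. The share of all genes with liver lowest was not computed. At least 5 TPM of mRNA was reached by 7009 genes in P42 liver, 5757 in heart, 9267 in kidney, 9597 in lung, 10607 in brain and 11349 in retina. Each member has 15 pairs of tissues, and pairs whose level averaged over both tissues was under 1 TPM were not tested, which left 0 for P42 Dlk1 footprints. At P42, 95 of 134 contrasts were called by mRNA and 78 of 126 by footprint, where 60.8% and 52.7% of all genes' contrasts were called. At E15.5, 96 and 99 of 150 were called, where 43.1% and 36.2% were. Neighbours in an order were often not called different: for E15.5 Igf2, lung and liver and also liver and kidney were not separated, and for E15.5 Peg3 only 4 of 15 contrasts were called.

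Across the 6 tissues the members' mRNA levels correlated with one another with a median r of 0.61 at P42 and 0.21 at E15.5 (39 and 29 of 45 gene pairs above 0), and their footprint levels at 0.50 and 0.58 (35 and 35 of 45). The tissue means share libraries, and 6 points describe only these tissues. Correlations between genes outside the list were not computed, so these values do not set the members apart.

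The genes whose mRNA pattern was most like a member's, by Pearson's r of mean log2(TPM + 1) over the 12 tissue and stage groups among 17161 genes, were Gm49394 (1.00) and Obsl1 (0.92) for Igf2, Rtl3 (0.95) and Hba-x (0.94) for Dlk1, Nrk (0.95) and Col6a6 (0.94) for Igf2r, Ccdc8 (0.97) and Plk4 (0.97) for Grb10, Ston1 (0.96) and Flna (0.96) for Cdkn1c. They were Smc6 (0.98) and Nedd4 (0.98) for Plagl1, Ankrd52 (0.96) and Sde2 (0.96) for Peg3, Ccdc8 (0.97) and Copg2 (0.97) for Mest, Robo1 (0.97) and Dck (0.95) for Peg10, and Ppp3cb (0.99) and Arxes1 (0.98) for Ndn. Of these, Gm49394 and Copg2 share bases with the member. The groups share the stage difference, which all members have, and the values are descriptions.

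Other genes of the pathway and other imprinted genes give the setting. Of 25 genes of the insulin-like growth factor pathway (the ligand Igf1, receptors, binding proteins, mRNA-binding proteins and kinases of the signal), mRNA calls were 10 lower and 6 higher of 22 in liver, 11 lower and 4 higher of 25 in kidney, 12 lower and 2 higher of 23 in lung, 15 lower and 2 higher of 20 in heart, 11 lower and 1 higher of 21 in brain, 11 lower and 3 higher of 21 in retina. Of all genes, 47.0% in liver, 43.9% in kidney, 53.5% in lung, 74.6% in heart, 36.0% in brain and 24.7% in retina were called lower. Called higher were 13.4%, 13.1%, 10.1%, 2.73%, 11.7% and 18.6% in the same order. The list's counts of lower genes lay near these shares in liver, kidney, lung and heart, and above them in brain and retina. The oncofetal mRNA-binding proteins Igf2bp1, Igf2bp2 and Igf2bp3 fell in 6 of 6 tissues. Igfbp2, a secreted binding protein, fell in 4 tissues and rose in liver by 7.27, with means of 1159 TPM in P42 and 6.58 TPM in E15.5 liver. The median log2 of the list was -2.33 in heart and -1.20 in brain, less negative than the members' medians. The medians of all genes there were -1.61 and -0.60. In kidney and liver the list had -0.72 and -0.68, less negative than all genes at -0.81 and -0.89.

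Of 21 genes of the imprinted regions that hold members, calls were 8 lower and 1 higher of 13 in liver, 10 lower and 5 higher of 17 in kidney, 11 lower and 2 higher of 18 in lung, 11 lower and 0 higher of 13 in heart, 8 lower and 1 higher of 16 in brain, 5 lower and 0 higher of 11 in retina. Among them Peg12, Zim1 and Asb4 fell in 5 tissues and Copg2 in 6. Of 22 other imprinted genes, calls were 4 lower and 2 higher of 15 in liver, 9 lower and 1 higher of 17 in kidney, 10 lower and 1 higher of 18 in lung, 11 lower and 0 higher of 15 in heart, 10 lower and 4 higher of 19 in brain, 3 lower and 5 higher of 17 in retina. Nnat, which encodes neuronatin, fell in 6 of 6, with means of 265.6 TPM in P42 and 6296 TPM in E15.5 brain. Slc38a4, an amino acid transporter gene, fell in 5 tissues and rose in liver by 2.03, with means of 473 TPM in P42 and 115 TPM in E15.5 liver. Impact, a regulator of the Gcn2 kinase pathway, rose in brain by 1.79 and in retina by 2.29 and fell in 3 tissues, and Zdbf2 fell in 5. Of 6 other cyclin-dependent kinase inhibitors, calls were 4 lower and 0 higher of 4 in liver, 2 lower and 1 higher of 5 in kidney, 2 lower and 2 higher of 5 in lung, 4 lower and 0 higher of 4 in heart, 2 lower and 0 higher of 5 in brain, 1 lower and 0 higher of 4 in retina. Cdkn1a, which encodes p21, fell in 4 tissues and rose in lung by 3.10, while Cdkn2c and Cdkn2d fell in 4 and Cdkn1b in 3; Cdkn1a lung mRNA had means of 145 TPM in P42 and 15.7 TPM in E15.5 lung. Imprinted genes outside the list thus included some that rose. The counts of these lists are to be read beside the shares of all genes given with the pathway list, 74.6% called lower in heart among them.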

How the data were processed

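RNA-seq of poly(A)+ RNA and Ribo-seq (cycloheximide in the lysis buffer, rRNA depleted) were used as deposited. The deposited values are TPM per gene that the authors computed, in 4 tables of 12 libraries each. The submitters' processing notes name CASAVA 1.8.2, cutadapt 1.8.1, TopHat2 2.0.14, Subread featureCounts 1.6.2 and GRCm38.p6; not given in the sources used here: the features in the TPM total and the strand setting. From the TPM, log2(TPM + 1) was fitted with limma 3.58.1 (R 4.3.3, empirical Bayes with a mean-variance trend) over 12 tissue and stage groups per assay, with 12 residual degrees of freedom, and over 24 groups for translational efficiency, with 24. Fold changes are on the log2(TPM + 1) scale, which understates the change of low genes. Genes needed 1 TPM in 2 libraries, and each contrast a mean of 1 TPM over the libraries of both its groups, or 5 TPM of mRNA at both stages for translational efficiency. P-values are two-sided and Benjamini-Hochberg adjusted over all genes of a contrast. Named genes were the 10 members, the 2 genes most like each, and from each context list at most 4, with the largest median mRNA change among those called in at least 3 tissues. Alternatives were other pseudocounts, filters and scalings, no variance trend, each tissue alone, a replicate block, and leaving out each library. The fits were tested on simulated data. The members and lists were chosen with earlier results of these data known.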

Additional observations from a re-analysis of the deposited data

Results flagged for a closer look

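The difference between stages varied over the 6 tissues for every member in both assays, by limma's F test over the tissue contrasts of the P42 minus E15.5 difference. In mRNA the adjusted p was 8.43e-17 for Igf2, 4.45e-15 for Dlk1, 1.33e-13 for Mest, 2.59e-08 for Plagl1, 3.71e-14 for Peg3, 1.4e-09 for Grb10, 1.42e-07 for Cdkn1c, 3.83e-11 for Igf2r, 6.06e-08 for Peg10, 1.61e-07 for Ndn. In footprints it was 3.2e-10 for Igf2, 3.15e-14 for Dlk1, 1.8e-10 for Mest, 3.27e-06 for Plagl1, 6.05e-11 for Peg3, 1.25e-07 for Grb10, 7.2e-06 for Cdkn1c, 4.19e-08 for Igf2r, 1.57e-08 for Peg10, 7.87e-06 for Ndn. Of all genes, 98.3% in mRNA and 93.0% in footprints passed the same test, so the pass itself does not set the members apart. With 2 libraries in a group, no single library was tested as standing apart.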

How the results depend on the processing

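The 55 mRNA and 54 footprint pairs called lower and the 10 members called by the F test in each assay kept their direction, and their counts stayed within 1.5 times, under every alternative run. The results that did not were these. Under median-of-ratios scaling and with mitochondrial genes left out, 1 mRNA pair was called higher (retina Peg3) against 0. Pairs with lower translational efficiency, 4 in the fit reported, were 2 with a pseudocount of 4, 8 under median-of-ratios scaling and 2 with the stricter filter; pairs with higher efficiency, 8 in the fit reported, were 2 under median-of-ratios scaling, 4 without mitochondrial genes, 15 with no filter and 3 with the stricter filter. Footprint contrasts between tissues at P42 were 49 with the stricter filter, against 78, since fewer genes were tested. Pairs below 5% of the E15.5 mRNA level were 18 under median-of-ratios scaling, against 35. The cause of the other shifts was not tested. Leaving out 1 library at a time gave 55 to 56 mRNA pairs lower, 0 to 1 higher, 52 to 55 footprint pairs lower and 0 to 0 higher; 6 to 10 with higher and 3 to 6 with lower efficiency; 35 to 36 and 30 to 32 below 5% by mRNA and by footprint; 12 to 14 and 12 to 17 below 1 TPM; and 5 to 6 and 4 to 7 members lower in retina. Tissue contrasts were 88 to 98 by mRNA and 76 to 84 by footprint at P42, and 94 to 98 and 97 to 101 at E15.5. Footprint counts in brain stayed at 8, and all other tissue counts and the F test counts at 10. Changes of sign were seen only among efficiency differences that were not called in the fit reported: under median-of-ratios scaling Grb10 -0.26 in brain, -0.10 in heart, -0.049 in lung and -0.091 in retina, Mest -0.57 in heart and -0.87 in lung, Ndn -0.72 in lung and -0.16 in retina, Igf2r -0.032 in heart, Plagl1 -0.19 in lung and Cdkn1c -0.36 in retina; at an equal sum Igf2 0.28 in heart and Mest -0.31 in lung; without mitochondrial genes Mest -0.31 in lung and Cdkn1c -0.027 in retina; with a pseudocount of 0.25 Igf2 -0.032 and Mest -0.067 in lung. With 1 library left out, efficiency differences that changed sign ran from -0.65 to 0.13 for Ndn in brain, -0.052 to 0.59 for Mest in heart, -0.14 to 0.64 for Grb10 and -0.096 to 0.66 for Igf2r in kidney, and -0.23 to 0.61 for Mest and -0.22 to 0.73 for Ndn in lung. The difference between replicate 2 and replicate 1 correlated across genes above 0.1 in 6 of 12 pairs between assays, with r from -0.23 to 0.38. Between tissues 11 of 60 pairs did so. The labels do not say whether same-numbered libraries share a sample, and these values do not settle it. With the replicate block 10 members were called lower in brain mRNA, as without it, and no member call changed. Over all genes, leaving out mitochondrial genes gave 44.5% lower and 6.9% higher mRNA in heart, and 13.6% lower and 19.4% higher footprints there; no filter, pseudocounts and stricter filters moved other counts of all genes by over 1.5 times too. The read depth is unknown, so what depth limits could not be stated.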
